A study of Homo sapiens with 4 samples.

Results

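The integrated stress response is a signalling route by which a cell under stress lowers protein synthesis in general while making more of the transcription factor ATF4. The genes described here are 32 named components and targets of this route, matched by symbol to a list of names: the kinases that start it, ATF4 and related transcription factors, the phosphatase subunits that end it, and genes that ATF4 is known to activate. All 32 symbols were found among the 20323 gene rows of the study. One symbol, DDIT3, had a second row, which held at most 0.98 counts in a library, so 33 rows matched and the row with the higher mean count was used.

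Libraries of poly(A) RNA came from 5-FU-resistant HCT8, a derivative of a human colorectal cancer cell line selected for resistance to 5-fluorouracil. In 2 libraries the cells carried METTL14 overexpression plasmids, and in 2 they carried negative control plasmids. METTL14 is the partner of METTL3 in the enzyme that places N6-methyladenosine on mRNA. Cells of both groups received cycloheximide at 100 ug/mL, a blocker of translation elongation, so no library shows these genes without it, and its duration is not stated in the labels. The labels do not say whether the resistant line is 1 clone, and the study describes 2 independent experiments.

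Each of 4 kinases, among them EIF2AK1, EIF2AK3 and EIF2AK4, answers to its own kind of stress and phosphorylates the initiation factor eIF2. Phosphorylated eIF2 blocks its own exchange factor, eIF2B, which slows the start of translation on most mRNAs, whereas the ATF4 mRNA, with short reading frames ahead of its coding region, is translated better. ATF4 protein then pairs with C/EBP proteins and other leucine zipper factors on composite DNA elements and switches on genes of amino acid synthesis, amino acid uptake and redox balance, and with lasting stress also DDIT3, which encodes CHOP. Only mRNA was measured here, and neither eIF2 phosphorylation nor ATF4 protein.

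The composite element is the sequence through which ATF4 is known to act on many of these genes, so the promoters of the members were searched for it. RefSeq promoter windows on GRCh38.p14, each 300 bases long (250 before to 50 after a transcription start), were found for 26 of the 32 members. The search used TGATGCAAT and the looser TGATGNAAN, of which the first is a special case, on both strands. No member window held TGATGCAAT, which occurs for 0.293% of the 27305 gene symbols with a window. The looser form was found for 5 of the 26 members (19.2%), against 4.45% of all symbols. A symbol can have several windows, and counted by window it was in 5 of the members' 38, against 3.61% of all 35116. These 5 stretches of 29 bases are shown in the direction of the gene, with the match in capitals:
ASNS: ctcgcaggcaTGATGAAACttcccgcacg
CEBPG: gcgcggcgtcTGATGCAACctgccggcaa
CHAC1: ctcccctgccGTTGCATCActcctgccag
JDP2: tagccggggcTGATGCAACccgtcccgcc
PPP1R15B: ccgccccggcTGATGCAACctcacgctgc
The ASNS stretch lies at chr7:97872458-97872486 on the minus strand, with the match starting at -68 relative to the transcription start. The CEBPG stretch lies at chr19:33374061-33374089 (plus strand, match at -42), that of JDP2 at chr14:75427996-75428024 (plus strand, match at -16) and that of PPP1R15B at chr1:204412026-204412054 (minus strand, match at -227). The CHAC1 stretch lies at chr15:40953251-40953279 (plus strand), with the match at -210 on the strand opposite to the gene. A match describes letters in a window and is not evidence of binding, and elements outside these windows were not searched. Of the 5 genes, ASNS, CHAC1 and PPP1R15B were higher with METTL14 in the comparison that follows, and CEBPG and JDP2 did not pass the test.

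Total counts were 19206661 to 20161082 per library. METTL14 itself was measured at 24.6 and 30.7 CPM in the controls and 390 and 421 CPM with its plasmid, where CPM is the count scaled to a common library total after TMM normalization. Of 10 markers of colorectal epithelium, 9 averaged 1 CPM or more in the controls and 10 did so with METTL14. Of 7 fibroblast markers 4 and 3 reached that level, of 6 leukocyte markers 1 and 2, and of 5 endothelial markers 0 and 1. The summed level of these other cells' markers was 12.7 to 19.7 CPM for fibroblasts, 1.77 to 3.80 CPM for leukocytes and 0.513 to 1.85 CPM for endothelium, and CD3E and KDR were at 0 in all 4 libraries. All 3 of these sums were higher in both METTL14 libraries than in either control. Their part in the results was not tested.

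Of the 32 members 29 had enough counts to be tested. With METTL14, 19 were higher and 2 lower, and 8 did not pass the test (edgeR's quasi-likelihood test, with p adjusted by Benjamini-Hochberg over 12700 genes and a threshold of 0.05). Over all tested genes 27.0% were called higher and 28.1% lower, 55.1% in all. The rise was at least 2-fold for 7 members (ASNS, CHAC1, DDIT4, GDF15, KLHL24, NUPR1 and PCK2), and 10.2% of all tested genes were called higher by that much. The median log2 fold change was 0.52 for the tested members and -0.01 for all tested genes. These 29 are the members that passed a filter on low counts, not the whole list, which was chosen with earlier results of these data known. In a bulk sample, fewer cells expressing a gene and less of its RNA per cell cannot be told apart.

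**Figure D1:**
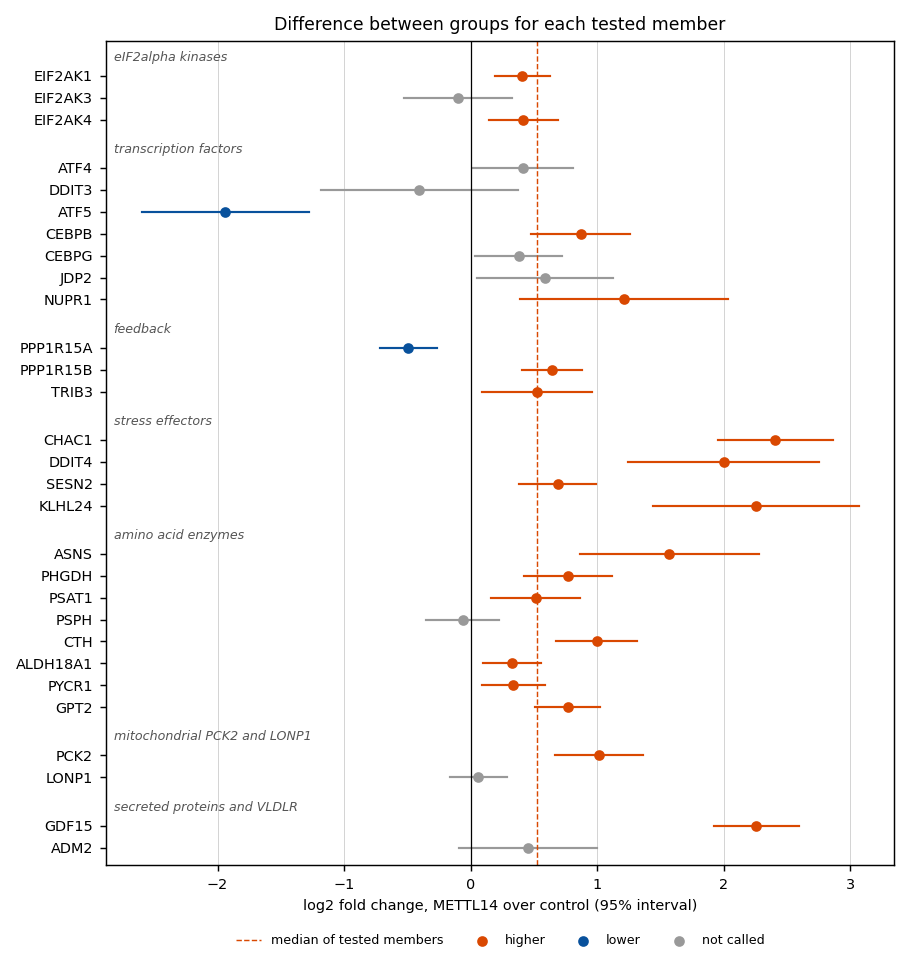
Log2 fold change of METTL14 over control for the 29 tested members, with 95% intervals from the edgeR fit, grouped by role (n = 2 libraries per group). Orange members were called higher, blue lower and grey not called, and the dashed line is the members' median of 0.52. CHAC1, GDF15, KLHL24 and DDIT4 lie at 2.0 or above, and ATF5 and PPP1R15A lie on the other side of 0.

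Stress effectors were among the members that rose most. CHAC1, an enzyme that degrades glutathione, was measured at 7.02 and 10.8 CPM in the controls and 48.4 and 46.6 CPM with METTL14. Both METTL14 libraries thus lay far above both controls, with the lower of them 4.30 times the higher control. The log2 fold change was 2.41 (SE 0.194, adjusted p = 0.00015), a 5.32-fold rise from 8.93 ± 2.69 to 47.5 ± 1.28 CPM (SD, n = 2).

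KLHL24, an adaptor of a ubiquitin ligase, had 4.99 and 12.4 CPM in the controls and 40.5 and 42.5 CPM with METTL14. Its controls differed 2.48-fold from each other, yet the lower METTL14 library was still 3.27 times the higher control. It rose 4.77-fold (log2 fold change 2.26, SE 0.342, adjusted p = 0.00162), and the log2 value was 3.05 without control replicate 2 and 1.75 without control replicate 1. DDIT4, an inhibitor of mTORC1 signalling also called REDD1, had 17.9 and 39.5 CPM in the controls and 119 and 111 CPM with METTL14. Here too control replicate 2 was the higher control, at 2.21 times control replicate 1. DDIT4 rose 4.0-fold (log2 2.0, SE 0.317, adjusted p = 0.00196). Its log2 value was 2.68 without control replicate 2, and its call was lost without METTL14 replicate 1 (adjusted p = 0.123) and with the replicate block (adjusted p = 0.186).

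SESN2, a leucine-sensing inhibitor of mTORC1, rose less than these. It was measured at 26.3 and 31.2 CPM in the controls and 48.6 and 44.2 CPM with METTL14, with no overlap between the groups. The log2 fold change was 0.69 (SE 0.129, adjusted p = 0.00345). All 4 stress effectors were thus called higher, against 27.0% of all tested genes.

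GDF15, a secreted stress hormone that acts on appetite through a receptor in the hindbrain, had the most abundant mRNA of the list with METTL14. It was measured at 153 and 199 CPM in the controls and 867 and 820 CPM with METTL14, and the groups lay 4.11-fold apart at their nearest libraries. The rise was 4.79-fold (log2 2.26, SE 0.144, adjusted p = 9.2e-05). Counts divided by transcript length and scaled to a common total per library allow levels of different genes to be compared. On that per-length scale GDF15 stood at 284 and 387 in the controls, below ATF4 at 385 and 583, and at 1760 and 1670 with METTL14, above ATF4 at 686 and 691. ADM2, the hormone adrenomedullin 2, had 16.8 and 29 CPM in the controls and 32.5 and 30.4 CPM with METTL14. Its log2 value of 0.46 (95% interval -0.09 to 1.00, adjusted p = 0.134) did not pass the test, and control replicate 2 lay within 1.05-fold of the lower METTL14 library. ADM2 stood at 0.12 without control replicate 1, at 0.90 without control replicate 2 and at -0.0007 after correction for transcript length and GC content. Under the replicate block it was called (adjusted p = 0.035).

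**Figure D2:**
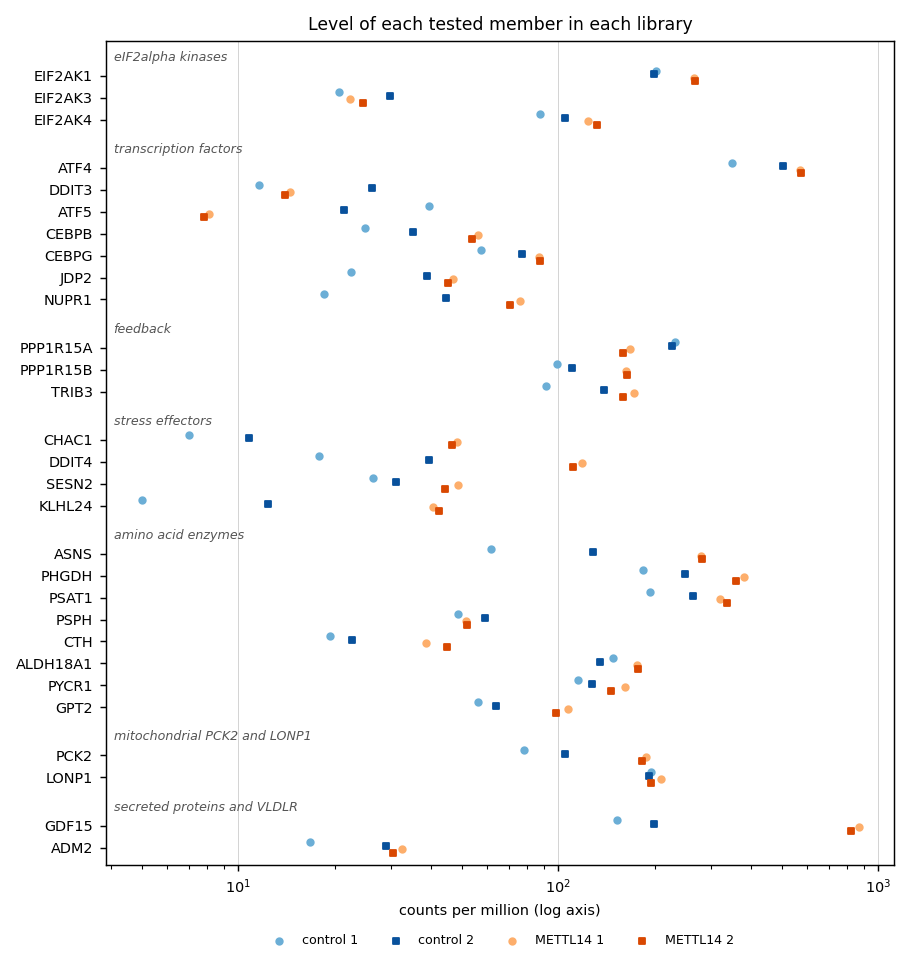
Level of each of the 29 tested members in each of the 4 libraries, in CPM on a log axis, grouped by role and with library points offset vertically. For GDF15, CHAC1, DDIT4 and KLHL24 both METTL14 libraries lie well to the right of both controls, and for ATF5 to the left.

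The other 3 members were too low to test. STC2, a secreted glycoprotein, had 2 and 11 counts without the METTL14 plasmid and 2 and 2 with it. INHBE, an activin subunit, had 1 and 2 against 9 and 4 counts. VLDLR, a lipoprotein receptor, had 2 and 1 against 0 and 4 counts. At this depth no difference in these 3 genes could be assessed.

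Enzymes of amino acid metabolism were higher as well, with 7 of 8 called and none called lower, against 27.0% higher and 28.1% lower over all tested genes. ASNS, asparagine synthetase and a classical ATF4 target, carries one of the promoter matches shown above. It was measured at 61.7 and 128 CPM in the controls and 280 and 282 CPM with METTL14. The METTL14 libraries were close to each other, while the controls differed 2.07-fold. ASNS rose 2.97-fold (log2 1.57, SE 0.298, adjusted p = 0.00418), with log2 values of 2.19 without control replicate 2 and 1.14 without control replicate 1. When the replicate number was added to the model as a block, ASNS was no longer called (adjusted p = 0.128).

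Serine synthesis has 3 enzymes, and only the members of its first and second steps were called. PHGDH, the first enzyme, had 184 and 248 CPM in the controls and 381 and 358 CPM with METTL14, a rise of 1.71-fold (log2 0.77, SE 0.148, adjusted p = 0.00387). PSAT1, the second, had 194 and 264 CPM against 320 and 336 CPM (log2 0.52, SE 0.15, adjusted p = 0.022), and its call was lost without METTL14 replicate 2 (adjusted p = 0.0779). PSPH, which makes serine in the last step, had 48.7 and 59.0 CPM in the controls and 51.5 and 51.7 CPM with METTL14. Both METTL14 libraries fell between the controls, and its log2 value was -0.06 (95% interval -0.35 to 0.23, adjusted p = 0.69). The log2 value of PSPH was -0.19 without control replicate 1 and turned to 0.08 without control replicate 2. The difference between PSPH and the other enzymes was not tested.

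CTH, which makes cysteine from cystathionine, had 19.4 and 22.6 CPM in the controls and 38.7 and 45.0 CPM with METTL14. It rose 1.996-fold (log2 0.997, SE 0.137, adjusted p = 0.000914) and, unlike ASNS, had controls within 1.17-fold of each other. GPT2, the mitochondrial alanine aminotransferase, had 56.3 and 64.0 CPM against 107 and 98.1 CPM (log2 0.77, SE 0.11, adjusted p = 0.00109). Proline synthesis moved less. ALDH18A1, its first enzyme, had 148 and 135 CPM against 176 and 178 CPM (log2 0.33, SE 0.0989, adjusted p = 0.0257), and PYCR1, its last, 115 and 127 CPM against 161 and 146 CPM (log2 0.34, SE 0.107, adjusted p = 0.0302). PYCR1 shares exon sequence with MYADML2 on the same strand, at 0.052 and 0.154 CPM in the controls and 0.822 and 0.939 CPM with METTL14. The part of MYADML2 in the PYCR1 value was not tested. Neither ALDH18A1 nor PYCR1 was called without METTL14 replicate 1 or without METTL14 replicate 2 (adjusted p of 0.239 and 0.265 for ALDH18A1, and of 0.365 and 0.136 for PYCR1).

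PCK2, the mitochondrial form of phosphoenolpyruvate carboxykinase, had 78.0 and 105 CPM in the controls and 188 and 182 CPM with METTL14. It rose 2.02-fold (log2 1.01, SE 0.147, adjusted p = 0.00115). LONP1, the mitochondrial matrix protease, had 195 and 192 CPM against 209 and 195 CPM, and its log2 value of 0.06 (95% interval -0.16 to 0.29, adjusted p = 0.607) did not pass the test. After correction for transcript length and GC content it turned to -0.28 and was called lower (adjusted p = 0.036). LONP1 shares exon sequence with RPL36 on the opposite strand.

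The transcription factors moved in different directions. ATF4 had 348 and 505 CPM in the controls and 567 and 572 CPM with METTL14. Both METTL14 libraries lay above both controls, but control replicate 2 was 1.45 times control replicate 1 and within 1.12-fold of the lower METTL14 library. The log2 value of 0.42 (SE 0.168, 95% interval 0.02 to 0.81, adjusted p = 0.0701) did not pass the test over all genes. It passed in DESeq2 (adjusted p = 0.0205) and with the replicate block (adjusted p = 0.00162). Nothing says that the replicate numbers used in that block pair the samples. The log2 value was 0.17 without control replicate 1 and 0.71 without control replicate 2. Fits without a control take their spread from the METTL14 pair alone, so they cannot decide whether ATF4 passes.

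CEBPG and JDP2, both partners of ATF4-type factors, followed the same order of libraries. CEBPG had 57.3 and 77.1 CPM against 86.9 and 87.9 CPM (log2 0.38, 95% interval 0.04 to 0.72, adjusted p = 0.0587), and JDP2 22.5 and 38.8 CPM against 47.0 and 45.2 CPM (log2 0.59, 95% interval 0.05 to 1.12, adjusted p = 0.0616). Neither was called, though both passed in DESeq2. Without control replicate 1 the log2 values were 0.18 for CEBPG and 0.25 for JDP2, and without control replicate 2 they were 0.61 and 1.03.

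CEBPB, a C/EBP factor that also acts in inflammation and differentiation, did pass. It had 24.9 and 35.2 CPM in the controls and 56.3 and 53.6 CPM with METTL14, and rose 1.83-fold (log2 0.87, SE 0.167, adjusted p = 0.00391). NUPR1, a small stress-induced chromatin protein, had 18.5 and 44.5 CPM against 75.8 and 70.4 CPM. Its rise of 2.32-fold (log2 1.21, SE 0.346, adjusted p = 0.0223) came with controls 2.41-fold apart. The log2 value was 1.98 without control replicate 2 and 0.72 without control replicate 1. The NUPR1 call was lost in DESeq2 (adjusted p = 0.0711), with the replicate block (adjusted p = 0.317) and with no filter on low counts (adjusted p = 0.156). It was also lost without METTL14 replicate 1 and after correction for transcript length and GC content.

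DDIT3, which encodes CHOP, did not follow ATF4 targets such as CHAC1 in these libraries. It had 11.6 and 26.1 CPM in the controls and 14.5 and 14 CPM with METTL14, so both METTL14 libraries fell between the controls. Its log2 value was -0.41 (95% interval -1.18 to 0.37, adjusted p = 0.33). The direction depended on the control: the log2 value was -0.87 without control replicate 1 and 0.29 without control replicate 2. DDIT3 shares exon sequence with MARS1 on the opposite strand, and MARS1 was called higher, at 238 and 267 CPM against 404 and 394 CPM. Its exons also overlap those of the second DDIT3 row and of MBD6. The library kit named in the labels does not mark strand, so reads of genes on opposite strands cannot be told apart where their exons overlap. The part of these neighbours in the DDIT3 value was not tested.

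ATF5 was the only transcription factor of the list called lower. ATF5, a relative of ATF4 whose translation is also raised by eIF2 phosphorylation, had 39.5 and 21.4 CPM in the controls and 8.08 and 7.80 CPM with METTL14. The groups did not overlap, and the lower control was 2.65 times the higher METTL14 library. It fell by 1.94 on the log2 scale (SE 0.281, adjusted p = 0.00115), a 3.84-fold fall, and stayed called without each library in turn, at log2 values of -1.43 without control replicate 1 to -2.32 without control replicate 2. Control replicate 1 held 1.84 times the ATF5 of control replicate 2, the reverse of the order seen for ATF4. Relative to ATF4 on the per-length scale, ATF5 stood at 11.1% and 4.13% in the controls and at 1.39% and 1.33% with METTL14. ATF5 shares exon sequence with NUP62 on the opposite strand, which took the same order of libraries (149 and 101 CPM in the controls, 71.4 and 70.2 CPM with METTL14, log2 -0.82, adjusted p = 0.006). IL4I1, also on the opposite strand, overlaps exons of ATF5 as well and was too low to test. The part of NUP62 or IL4I1 reads in the ATF5 value was not tested.

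Regulators that end the response were split too. PPP1R15A (GADD34) and PPP1R15B (CReP) are the subunits that direct protein phosphatase 1 to eIF2: the first is induced by stress and the second is present without it. PPP1R15A had 231 and 226 CPM in the controls and 167 and 159 CPM with METTL14, and fell by 0.49 on the log2 scale (SE 0.0947, adjusted p = 0.00398). PPP1R15B moved the other way, from 99.0 and 110 CPM to 163 and 164 CPM, and rose 1.56-fold (log2 0.65, SE 0.101, adjusted p = 0.00159). On the per-length scale the ratio of PPP1R15A to PPP1R15B was 5.13 and 4.52 in the controls, against 2.26 and 2.13 with METTL14. The controls lay within 1.11-fold of each other for either gene. PPP1R15A was not called without METTL14 replicate 1 (adjusted p = 0.0658) or METTL14 replicate 2 (adjusted p = 0.112), with the log2 value between -0.45 and -0.52 in every fit that left out 1 library.

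TRIB3, a pseudokinase that ATF4 and CHOP induce and that restrains ATF4 activity, had 91.4 and 139 CPM in the controls and 172 and 159 CPM with METTL14. Its rise of 1.44-fold (log2 0.52, SE 0.185) passed narrowly (adjusted p = 0.0458) and was lost without METTL14 replicate 1 (adjusted p = 0.096) and after correction for transcript length and GC content (adjusted p = 0.217).

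Of the kinases, 2 of 3 were higher, both by a modest amount, against 27.0% of all tested genes called higher. EIF2AK1 (HRI), which senses heme shortage and relays mitochondrial stress, had 202 and 199 CPM in the controls and 266 and 267 CPM with METTL14 (log2 0.41, SE 0.0924, adjusted p = 0.00783). EIF2AK4 (GCN2), which senses uncharged tRNA and stalled ribosomes, had 87.6 and 105 CPM against 124 and 132 CPM (log2 0.42, SE 0.117, adjusted p = 0.0189). Replicates of EIF2AK1 were nearly equal within each group, yet neither kinase was called once METTL14 replicate 1 or METTL14 replicate 2 was removed (adjusted p = 0.137 and 0.149 for EIF2AK1, and 0.0818 and 0.17 for EIF2AK4). EIF2AK1 shares exon sequence with AIMP2 on the opposite strand, which moved the other way (log2 -0.98). EIF2AK3 (PERK), the kinase of the endoplasmic reticulum, had 20.7 and 29.7 CPM against 22.3 and 24.6 CPM, with the METTL14 libraries between the controls (log2 -0.10, 95% interval -0.53 to 0.33, adjusted p = 0.66). The log2 value of EIF2AK3 was -0.34 without control replicate 1 and turned to 0.18 without control replicate 2.

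The 2 controls differed from each other across this list. Control replicate 2 was above control replicate 1 for 24 of the 29 tested members, against 50.8% of all tested genes with a count in both. The median log2 ratio of control replicate 2 to control replicate 1 was 0.43 for the members and 0.01 for all tested genes. For 9 members (NUPR1, KLHL24, DDIT3, DDIT4, ASNS, ADM2, JDP2, CHAC1 and TRIB3) the ratio was at least 1.5, which held for 8.16% of all tested genes. The METTL14 libraries were closer to each other, with a median absolute log2 difference of 0.07 for the members against 0.43 between the controls. Over all tested genes these values were 0.09 and 0.21, so the METTL14 pair was the closer one there too. What set the controls apart was not tested.

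**Figure D3:**
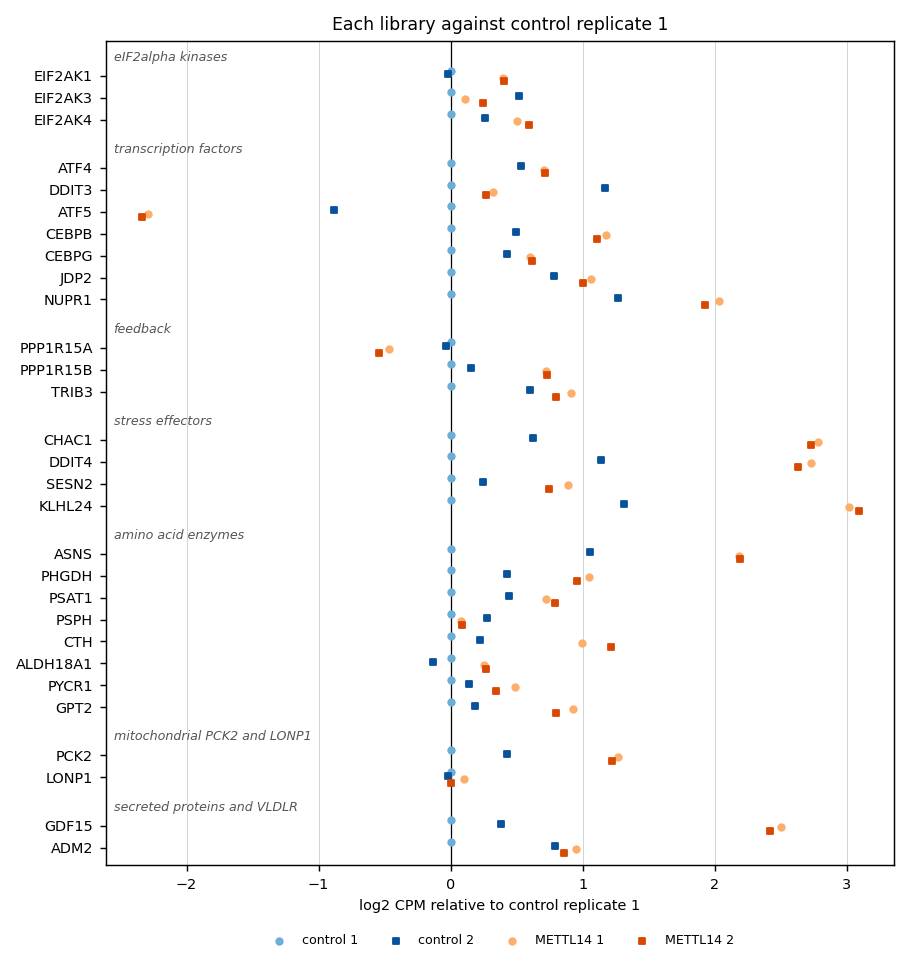
Level of each tested member relative to control replicate 1, on the log2 scale, for the 4 libraries (points offset vertically). For most members control replicate 2 lies between control replicate 1 and the METTL14 libraries; for DDIT3, EIF2AK3 and PSPH it lies above them.

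Against the higher of the 2 controls, both METTL14 libraries were still higher for 24 members and, against the lower control, lower for 2. Over all tested genes 39.8% lay above and 40.0% below in this sense, 79.8% in all. The 3 members whose groups overlapped were EIF2AK3, DDIT3 and PSPH. Summed over the tested members, the level was 2580 and 3225 CPM in the controls and 4837 and 4723 CPM with METTL14. Without GDF15, whose difference in CPM was the largest of any member, it was 2428 and 3025 CPM against 3970 and 3903 CPM.

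Each of the 21 members called kept the sign of its log2 value in the 4 fits that left out 1 library. The log2 value ranged from 2.13 to 2.75 for CHAC1, from 0.25 to 0.85 for TRIB3 and from -2.32 to -1.43 for ATF5. A group with 1 library left has no spread of its own and is assumed to vary like the other group. Without a METTL14 library the spread is that of the controls, and without a control it is that of the METTL14 pair. Over all tested genes the controls were also further apart (median absolute log2 difference 0.21 against 0.09). Among the tested members these values were 0.43 and 0.07. Calls in these fits thus depend on which pair sets the spread. Whether calls kept or lost are particular to the members was not tested. When the hypothesis tested was a difference of more than 1.5-fold, 7 members were called higher (GDF15, CHAC1, KLHL24, DDIT4, CTH, PCK2 and ASNS) and 1, ATF5, lower, against 11.1% and 10.7% of all tested genes.

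**Figure D4:**
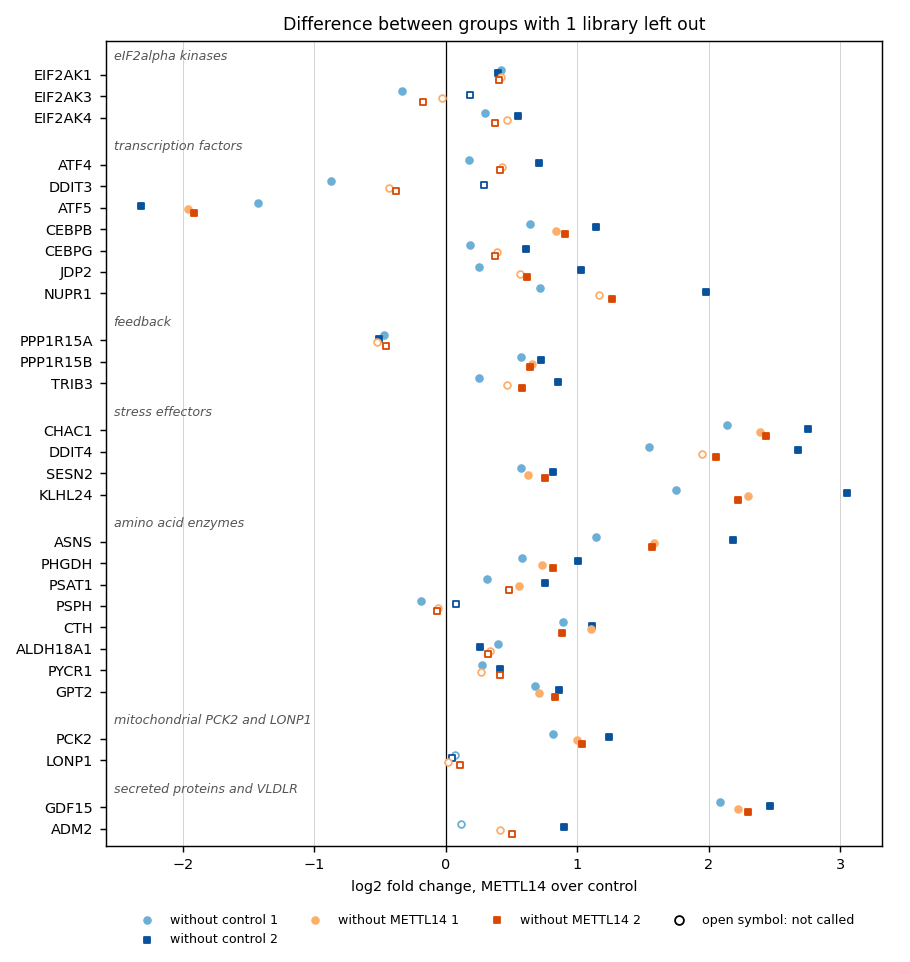
Log2 fold change of METTL14 over control for each tested member when 1 library is left out (points offset vertically). Filled symbols were called and open symbols were not. Values without control replicate 1 and without control replicate 2 bracket the others for most members, and DDIT3, EIF2AK3 and PSPH change sign without control replicate 2.

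Other genes of the pathway were read from the same fit in lists that hold no member, to be set beside the 27.0% higher and 28.1% lower over all tested genes. The lists, like the members, were chosen with earlier results of these data known, so their shares are not an independent comparison. Among 18 tested further targets of ATF4 and CHOP 9 were higher and 0 lower (median log2 0.44). SESN3, a sestrin related to SESN2, rose from 0.936 and 2.57 CPM to 15.4 and 15.4 CPM (log2 3.13, SE 0.353, adjusted p = 0.00042), with a log2 value of 4.02 without control replicate 2. VEGFA, an angiogenic growth factor, rose from 26.5 and 46.2 to 139 and 144 CPM (log2 1.96), GABARAPL1, an autophagosome protein, from 11.7 and 21.5 to 48.0 and 49.6 CPM (log2 1.55), and SESN1 from 7.70 and 8.31 to 15.3 and 15.2 CPM (log2 0.93). For each of these genes control replicate 2 was again the higher control, though by only 1.08-fold for SESN1. SESN1, SESN3 and VEGFA are also known to answer to other regulators. More of these targets were called higher without either control and fewer without METTL14 replicate 1, as was so over all genes. Targets were called lower only without control replicate 1.

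Of 13 aminoacyl-tRNA synthetases and related genes under ATF4 control, 8 were higher and 3 lower (median log2 0.41). Both counts fell without METTL14 replicate 1, as did the calls over all genes. CARS1 (log2 0.85, SE 0.112), AARS1 (log2 0.85, SE 0.132) and MARS1 (log2 0.66, SE 0.103), which charge tRNA with cysteine, alanine and methionine, rose, and NARS1, for asparagine, fell by 0.41 (SE 0.103). NARS1 was not called without METTL14 replicate 1 or METTL14 replicate 2 (adjusted p = 0.17 and 0.153).

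Amino acid transporters under ATF4 control had 5 of 11 higher and 2 lower. These counts, too, fell without METTL14 replicate 1, as did the calls over all genes. SLC38A2, a carrier of small neutral amino acids, rose from 153 and 221 to 415 and 430 CPM (log2 1.18, SE 0.168, adjusted p = 0.0011), SLC1A5, a glutamine carrier, from 385 and 333 to 672 and 640 CPM (log2 0.87, SE 0.109), and SLC6A9, a glycine carrier, from 9.83 and 18.4 to 39.0 and 33.5 CPM (log2 1.36, SE 0.261). SLC1A5 and SLC6A9 share exon sequence with opposite-strand genes. SLC7A5, the light chain of the large neutral amino acid carrier, fell from 476 and 396 to 309 and 293 CPM (log2 -0.53, SE 0.117, adjusted p = 0.00686), a call lost without METTL14 replicate 2 (adjusted p = 0.0795).

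The list of eIF2, eIF2B and kinase regulator genes gave 1 gene higher and 4 lower of 15 (median log2 -0.17), a share called lower near that over all genes. Both counts rose when either control was left out, as did the calls over all genes. EIF2B3, a subunit of the exchange factor, fell from 43.5 and 41.7 to 17.8 and 18.9 CPM (log2 -1.22, SE 0.115, adjusted p = 0.000231). EIF2S1, the eIF2 subunit that the kinases phosphorylate, fell from 314 and 261 to 150 and 149 CPM (log2 -0.94, SE 0.117), EIF2B1 by 0.78 (SE 0.123) and DNAJC3, an inhibitor of the kinases, by 0.72 (SE 0.174) on the log2 scale. EIF2S1 and EIF2B1 share exon sequence with opposite-strand genes. Among 20 tested bZIP relatives of ATF4 4 were higher and 3 lower, with JUND (log2 1.49, SE 0.162), NFIL3 (log2 1.31, SE 0.159) and FOSL2 (log2 0.98, SE 0.0942) higher and FOSL1 lower (log2 -0.78, SE 0.104). The shares of these relatives called were below those over all genes. Their counts rose when either control was left out, and the count lower fell without METTL14 replicate 1. Calls over all genes moved the same way in these fits.

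Mitochondrial chaperones and stress relay genes had 0 higher and 3 lower of 9: HSPD1 (log2 -1.57, SE 0.0962), HSPE1 (log2 -1.77, SE 0.144) and HSPA9 (log2 -0.73, SE 0.094), all protein-folding factors of the matrix. The share called lower was near that over all genes. More of these genes were called lower when either control was left out, and more were over all genes too. HSPD1 and HSPE1 are neighbours that share exon sequence. Of 5 tested genes of mitochondrial one-carbon metabolism, several of which ATF4 is known to control, 0 were higher and 2 lower, SLC25A32 (log2 -0.60, SE 0.116) and SHMT2 (log2 -0.39, SE 0.101), both with exons that overlap opposite-strand genes. The count lower rose without control replicate 1 and fell without METTL14 replicate 1, as did the calls over all genes. The count higher rose without control replicate 2. SHMT2 was not called without METTL14 replicate 1 or METTL14 replicate 2 (adjusted p = 0.209 and 0.163).

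The other arms of the unfolded protein response, those of IRE1 and ATF6, had 1 of 15 genes higher and 6 lower (median log2 -0.17). ERN1, which encodes IRE1 itself, rose from 9.31 and 7.90 to 18.4 and 19.1 CPM (log2 1.12, SE 0.152). CRELD2 (log2 -1.18, SE 0.124), HSP90B1 (log2 -1.0, SE 0.179) and SDF2L1 (log2 -1.21, SE 0.226), all resident in the endoplasmic reticulum, fell, and CRELD2 and HSP90B1 share exon sequence with opposite-strand genes. The summed level of these 15 genes was 5140 and 8190 CPM in the controls and 4780 and 4710 CPM with METTL14, so this sum was highest in control replicate 2. Counts depended on the controls: the count lower rose without control replicate 1, and the count higher rose without either control. The count lower fell without METTL14 replicate 1. Calls over all genes also rose without either control and fell without METTL14 replicate 1.

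**Figure D5:**
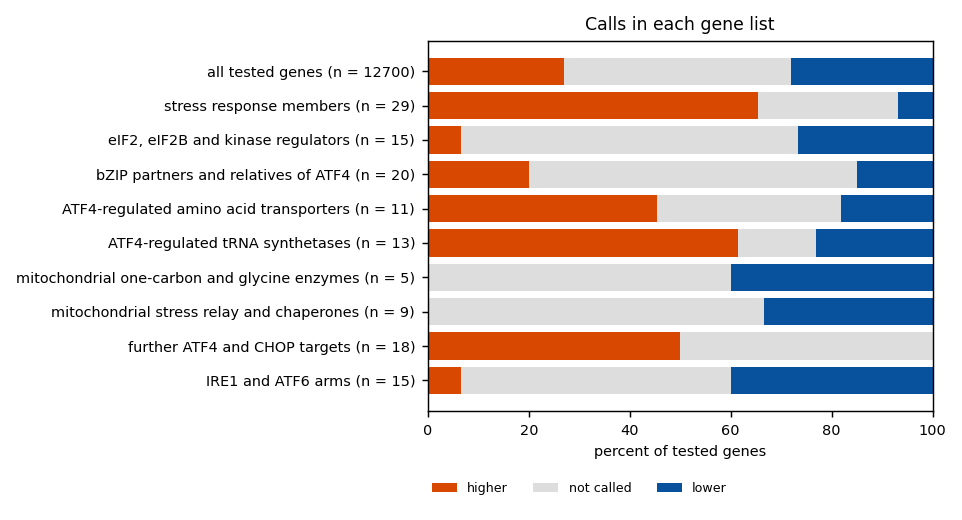
Percent of tested genes called higher, not called and called lower with METTL14 (edgeR adjusted p below 0.05) over all 12700 tested genes, in the 29 tested members and in 8 further lists of the pathway. The share called higher is 27.0% over all genes; among the members 19 of 29 were called higher, and in the lists of mitochondrial genes 0 were.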

How the data were processed

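Samples were placed in groups by their titles and treatment labels, 2 libraries in each. What the authors deposited are expected counts of reads for each gene, with no normalization, and 10.8 to 11.6% of them are not whole. Per the submitters' processing notes, fastp, Bowtie2, HISAT2, StringTie and RSEM were used with build hg18, and versions are not stated. Per the labels' protocols, the library kit does not keep strand. Of the gene identifiers 20171 are in GENCODE release 29 (GRCh38), used here only for transcript length (longest basic transcript), GC content and exon overlap. The 102 rows without a symbol held at most 0.0366% of a library's counts. Estimated counts divide reads between overlapping or similar genes, so such values are less certain.

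Counts were rounded and all genes fitted in edgeR 4.0.16 (R 4.3.3): filterByExpr with a minimum count of 10, TMM scaling, the robust quasi-likelihood test without covariates, and Benjamini-Hochberg adjustment over 12700 genes with a threshold of 0.05. The standard error was derived from the log2 fold change and its F statistic. With 2 libraries a group, p-values rest on a spread estimated across genes (biological coefficient of variation 10.8%), and totals of 19206661 to 20161082 counts per library leave low genes with wide intervals. Both pairs of replicates differed by more than sampling noise (chi-square per degree of freedom 28.8 between controls and 3.29 between METTL14 libraries). These values do not show whether the libraries of a pair came from separate cultures. Each library was counted as 1 sample.

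The alternatives tried were a fit in DESeq2 1.42.0, DESeq2's size factors in edgeR, limma-voom (limma 3.58.1), library totals alone as scaling, other filters on low counts (none, or 5 CPM), a fit that is not robust, the replicate block, a test against 1.5-fold, leaving out mitochondrial-genome genes, correcting for length and GC content, summing rows of 1 symbol, and leaving out each library. Code was tested on simulated data. The text names METTL14, all members, and up to 4 genes of smallest p in each further list, besides genes that share exons with a member and cell type markers. Members and lists were chosen with earlier results of these data known.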

Additional observations from a re-analysis of the deposited data

How the results depend on the processing

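Under DESeq2, its size factors, limma-voom, no normalization factors, both other filters, no robust step, summed rows and no mitochondrial-genome genes, 19 to 21 members were higher and 2 lower. Leaving out 1 library gave 12 to 23 members higher and 1 to 6 lower, 2307 to 4452 genes higher and 2307 to 4575 lower over all genes, and 20 to 49 higher and 14 to 45 lower in the further lists (28 and 23 with all libraries). Against 1.5-fold, 7 members were higher and 1 lower, 1416 and 1357 of all genes, and 12 and 7 in the further lists. With the length and GC trend removed 15 members were higher and 3 lower, LONP1 turned to -0.28 (adjusted p = 0.036) and ADM2 to -0.0007. In that fit EIF2AK4, NUPR1, TRIB3, ALDH18A1 and PYCR1 lost their call and CEBPG gained one. Without control replicate 2, the log2 values of EIF2AK3, DDIT3 and PSPH turned to 0.18, 0.29 and 0.0795, and without control replicate 1 they were -0.34, -0.87 and -0.191. The cause was not tested.

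The replicate numbers are shared between groups, but nothing says that they pair the samples, and the replicate differences of the groups correlated across genes at r = 0.04. With the replicate block 20 members were higher and 2 lower, and over all genes 3797 and 3903. ATF4, CEBPG, JDP2 and ADM2 gained a call, and NUPR1, DDIT4 and ASNS lost theirs.

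Low counts limit INHBE, STC2 and VLDLR, and the spread between the controls limits ATF4 and the 9 members at least 1.5-fold higher in control replicate 2 than in control replicate 1, DDIT4, KLHL24 and ASNS among them, and ATF5, where control replicate 1 was the higher.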

Other observations

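In 4 of the 5 promoter matches, those of CEBPG, CHAC1, JDP2 and PPP1R15B, the letters were the same, TGATGCAAC on one strand or the other. This form was singled out after the matches were seen. It occurs in the windows of 0.275% of all gene symbols (75 of 27305) and of 4 of the 26 members with a window. Of these 4 genes, CHAC1 rose 5.32-fold and PPP1R15B 1.56-fold with METTL14, and CEBPG and JDP2 were not called.

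Of the 10 colorectal epithelium markers, 4 were higher with METTL14, 3 lower and 3 not called, against 27.0% higher and 28.1% lower over all tested genes. CDH17, a cadherin of intestinal epithelium, rose from 35.3 and 42.1 CPM to 140 and 142 CPM (log2 1.87), and CDH1 (log2 0.74), CDX2 (log2 0.44) and LGALS4 (log2 0.44) were also higher. The keratins KRT8 (10300 and 6550 CPM in the controls, 4550 and 4490 CPM with METTL14), KRT18 (5240 and 3060 against 2220 and 2150 CPM) and KRT19 (1510 and 1230 against 1080 and 1010 CPM) were lower, and for these 3 genes control replicate 2 lay between control replicate 1 and the METTL14 libraries. KRT20 (0.312 and 0.565 against 0.925 and 1.09 CPM), EPCAM (499 and 486 against 480 and 500 CPM) and VIL1 (86.7 and 84.7 against 104 and 100 CPM) were not called. The calls of CDX2, LGALS4 and KRT19 were lost without either METTL14 library. CDX2 had passed narrowly with all libraries (adjusted p = 0.0459 in edgeR). Its log2 value was 0.70 without control replicate 1 and 0.22 without control replicate 2. KRT8 and KRT18 share exon sequence on opposite strands.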
